A study of Mus musculus with 2 samples.

Results

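The unfolded protein response genes described here are the 10 genes Hspa5, Hsp90b1, Xbp1, Manf, Sdf2l1, Creld2, Dnajb9, Herpud1, Ddit3 and Atf4. They were taken by symbol from the gene lists of both libraries, and all 10 were found among 31054 listed genes. The study profiled single cells of the mouse preoptic area, a hypothalamic region that regulates sleep and body temperature, and asked which of its neurons are active during rebound sleep. The SD+RS library came from wild-type C57BL/6J mice aged 9 to 10 weeks that were kept awake for 6 h and then allowed 2 h of recovery sleep. The SD library came from wild-type C57BL/6J mice of the same age that were kept awake for 6 h. Sleep deprivation is thus shared by both groups, and no undisturbed group was analysed here. Each library pooled males and females, how many mice were pooled is not stated in the labels, and there is 1 library per group. Cells were prepared with Act-seq, which blocks new transcription while tissue is dissociated, and with 10x Genomics droplets, which count each captured transcript once by its unique molecular identifier (UMI).

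The unfolded protein response is the signalling that links the load of unfolded protein in the endoplasmic reticulum (ER) to gene expression. Its sensors in the ER membrane are IRE1, PERK and ATF6. IRE1 splices Xbp1 mRNA into a form that encodes a transcription factor, cleaved ATF6 is itself a transcription factor, and PERK slows translation while favouring that of Atf4. XBP1 and ATF6 act mainly on genes of folding and disposal, and ATF4 acts on amino acid supply and on Ddit3. Magnocellular neurons of the hypothalamus make oxytocin or vasopressin in large amounts through the same ER, which is why they are described on their own below.

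The ER stress response element (ERSE), through which ATF6 and XBP1 act, was searched for as CCAAT, 9 bases of any kind and CCACG, on both strands of RefSeq promoters of GRCm38.p6, from 250 bases before to 50 bases after each start. Of the 10 genes, 9 were matched in that table. The motif was found in 3 of them, Hspa5, Hsp90b1 and Creld2, and in 0.119% of all 32851 promoters. The related motif ERSE-II, ATTGG, 1 base of any kind and CCACG, was found in Herpud1 and in 0.0365% of all promoters. These stretches are shown because they hold every match found, with the motif in capitals and 5 bases on either side. Hsp90b1 holds a match on either strand, and the whole stretch between them is given.
Hspa5, chr2:34772020-34772048, plus strand: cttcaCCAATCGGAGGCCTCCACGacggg
Hsp90b1, chr10:86705528-86705661, minus strand: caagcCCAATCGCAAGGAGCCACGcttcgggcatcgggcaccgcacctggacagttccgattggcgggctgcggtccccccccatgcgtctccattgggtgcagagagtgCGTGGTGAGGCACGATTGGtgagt
Creld2, chr15:88819515-88819543, plus strand: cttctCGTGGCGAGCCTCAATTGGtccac
Herpud1, chr8:94386372-94386392, plus strand: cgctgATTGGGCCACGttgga
The core of the XBP1 element, TGACGTGG, was in 0.676% of all promoters and the C/EBP-ATF composite element, TGATGNAAT, in 0.965%. Neither was found in the 9 matched promoters, which says only that these letters are not in this window.

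After filtering there were 7412 SD+RS cells and 9295 SD cells, with 123500649 SD+RS UMIs and 132191585 SD UMIs in all deposited barcodes. The median barcode held 14774 UMIs in SD+RS and 7534.5 UMIs in SD, and the libraries shared 23 barcode sequences. Neurons were 57.8% of SD+RS cells and 40.8% of SD cells, and their median depth was 21220 UMIs in SD+RS and 22071 UMIs in SD. The mix of sexes differed between libraries. Among SD+RS neurons, 3152 cells had only Xist and 922 only Y-linked UMIs, and among SD neurons 1319 had only Xist and 2074 only Y-linked UMIs. The part of sex in the results below was not tested. Values within cells of 1 sex, those with only Xist before those with only Y-linked UMIs, are given for the sums, the counts and the genes where they differ most from the pooled value. Of the deposited cells, 74 SD+RS and 619 SD cells formed a neuronal cluster of low depth and were kept apart. Each class carried its own markers, as in the 6 neuron markers, which summed to 14006 counts per 1000000 UMIs in SD+RS neurons and 14325 in SD neurons, and the 6 precursor markers, which summed to 11943 in SD+RS precursors and 11086 in SD precursors. Precursors also carried 5 markers of newly formed oligodendrocytes, at 1314 in SD+RS and 1448 in SD, against 115 and 105 in oligodendrocytes. Cells at that later stage were not split from the precursor class. All levels below are counts of UMIs of a gene per 1000000 UMIs of the cell class, written CPM. With 1 library per group no test between groups was possible, so intervals are 95% intervals of counting error alone and say nothing of the spread between mice. Log2 ratios are SD+RS over SD unless another pair is named.

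With cells of both sexes pooled, the summed level of the 10 genes was lower after recovery sleep in each of the 7 cell classes. The difference was least in neurons and most in oligodendrocyte precursors. Precursors, oligodendrocytes and astrocytes differed most, with mural cells close behind. In oligodendrocytes and astrocytes the genes past 1.5-fold were Hspa5, Xbp1, Manf, Sdf2l1, Creld2 and Herpud1. In oligodendrocytes and astrocytes fewer genes passed 1.5-fold within cells of 1 sex. In precursors fewer were counted there because Xbp1 and Creld2 then had under 100 UMIs, though both still lay past 1.5-fold. The order of classes also changed within cells of 1 sex: precursors still differed most, but the sum in mural cells lay further below 0 than in astrocytes. In mural cells with only Y-linked UMIs that rested on 11 SD+RS cells. With only Xist, microglia (−0.046) differed less than neurons (−0.14). With only Y-linked UMIs, microglia and endothelial cells (both −0.49) lay further below 0 than mural cells (−0.46) and astrocytes (−0.34). In neurons all 10 genes stayed within 1.5-fold between libraries. In magnocellular neurons the interval of the difference in sum included 0. The sum weighs genes by their abundance: in SD+RS neurons, Hspa5 gave 39141 and Hsp90b1 53787 of its 163419 UMIs.

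The sum in oligodendrocyte precursors, the dividing cells that give rise to myelinating glia, was 1851 CPM in SD+RS and 3101 in SD, a log2 ratio of −0.74 (−0.83 to −0.65). In oligodendrocytes it was 1083 in SD+RS and 1511 in SD, a log2 ratio of −0.48 (−0.52 to −0.44). In astrocytes it was 1429 in SD+RS and 1946 in SD, a log2 ratio of −0.45 (−0.49 to −0.40). These 3 glial classes lay further below 0 than neurons, where the sum was 1671 in SD+RS and 1805 in SD, a log2 ratio of −0.11 (−0.12 to −0.10). Mural cells, the contractile cells of vessel walls, had 1355 in SD+RS and 1814 in SD, a log2 ratio of −0.42 (−0.57 to −0.28). Microglia had 1750 in SD+RS and 2097 in SD (−0.26, −0.35 to −0.17), and endothelial cells 2205 in SD+RS and 2621 in SD (−0.25, −0.31 to −0.18). The median log2 ratio of all genes tested lay between −0.03 and 0.06 in these classes, so the lower sums were not shared by the typical gene. The sum differed by the sex of the cells in some classes: with only Xist and with only Y-linked UMIs it was −0.046 (−0.17 to 0.07) and −0.49 in microglia, −0.18 and −0.49 in endothelial cells, and −0.14 and −0.046 in neurons. In the same order it was −0.35 and −0.34 in astrocytes, both nearer 0 than the pooled interval. It was −0.41 and −0.56 in oligodendrocytes, −0.61 and −0.80 in precursors, and −0.48 and −0.46 in mural cells. The low-depth neuronal cluster, kept apart, had 2009 in SD+RS and 2986 in SD (−0.57, −0.70 to −0.45).

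Genes with at least 100 UMIs in a class over both libraries were counted as tested there, and a ratio of at least 1.5-fold as called. In astrocytes 6 of 10 genes were at least 1.5-fold lower in SD+RS, against 5.28% of all genes tested in that class. In oligodendrocytes 6 of 10 were, against 4.08% of all genes, and in oligodendrocyte precursors 4 of 9, against 2.7%. The 6 genes were the same in astrocytes and oligodendrocytes, namely Hspa5, Xbp1, Manf, Sdf2l1, Creld2 and Herpud1, and the 4 in precursors were Hspa5, Xbp1, Manf and Creld2. These counts were smaller within cells of 1 sex, a comparison made after the data had been seen. There all 10 genes were still tested in astrocytes and 10 or 9 in oligodendrocytes, but only 5 or 4 in precursors. In astrocytes 2 of 10 were lower in cells with only Xist (Manf and Herpud1), against 4.26% of all genes, and 4 of 10 in cells with only Y-linked UMIs (Xbp1, Manf, Creld2 and Atf4), against 7.83%. In oligodendrocytes 2 of 10 were lower in cells with only Xist (Xbp1 and Sdf2l1), against 3.33%, and 5 of 9 in cells with only Y-linked UMIs (Hspa5, Xbp1, Manf, Herpud1 and Ddit3), against 6.73%. With only Y-linked UMIs Creld2 (−0.76, −1.70 to 0.08) had under 100 UMIs in oligodendrocytes and was not counted. In precursors Hspa5 and Manf were lower in either, 2 of 5 tested with only Xist, against 3.46%, and 2 of 4 with only Y-linked UMIs, against 3.7%. Xbp1 (−1.24 and −1.55) and Creld2 (−1.10 and −1.40) had under 100 UMIs in either and were not counted there. In endothelial cells 0 of 8 were lower with only Xist, against 3.95%, and 4 of 8 with only Y-linked UMIs (Xbp1, Manf, Ddit3 and Atf4), against 9.95%. In neurons 0 of 10 were lower in either, against 1.46% with only Xist and 2.23% with only Y-linked UMIs. In microglia it was 0 of 7 with only Xist, against 6.26%, and 0 of 2 with only Y-linked UMIs, against 6.2%, and in mural cells 1 of 3 with only Xist (Hspa5), against 5.73%, and 0 of 1 with only Y-linked UMIs, against 10%. In endothelial cells 1 of 9 was lower, against 3.86% of all genes, in microglia 0 of 8, against 5.5%, and in mural cells 0 of 6, against 7.54%. In neurons it was 0 of 10, against 1.74% of all genes. None of the 10 was at least 1.5-fold higher in any class where it was tested, against 1.07% of all genes in neurons, 2.82% in astrocytes, 3.16% in oligodendrocytes, 2.28% in precursors, 3.38% in microglia, 4.11% in endothelial cells and 3.74% in mural cells. The median log2 ratio of the genes tested was −0.69 in astrocytes, −0.61 in oligodendrocytes, −0.58 in precursors and −0.21 in neurons.

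Among the chaperones, Hspa5 encodes BiP, the main HSP70 of the ER lumen, which also holds the sensors inactive. Hspa5 (mm10, chr2:34771970-34777547, plus strand, protein-coding) had 314 CPM in SD+RS precursors and 760 in SD precursors, a log2 ratio of −1.28 (−1.49 to −1.07). In astrocytes it had 419 in SD+RS and 669 in SD (−0.67, −0.75 to −0.60), and in oligodendrocytes 179 in SD+RS and 297 in SD (−0.73, −0.82 to −0.64). Within cells of 1 sex the log2 ratio was −1.22 and −1.23 in precursors, −0.55 and −0.46 in astrocytes, both nearer 0 than the pooled value, and −0.54 and −1.05 in oligodendrocytes. Hspa5 was lower in SD+RS in all 7 classes. Microglia had 334 in SD+RS and 498 in SD (−0.58), mural cells 396 in SD+RS and 569 in SD (−0.52), and endothelial cells 467 in SD+RS and 554 in SD (−0.25). Neurons stood close to even, with 400 in SD+RS and 430 in SD (−0.10, −0.12 to −0.08). Within neurons the log2 ratio was −0.15 in cells with only Xist and 0.01 in cells with only Y-linked UMIs.

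Hsp90b1 (chr10:86690209-86705509, minus strand) encodes GRP94, the HSP90 of the ER, which folds integrins and Toll-like receptors among others. It differed less than Hspa5 in every class. Precursors had 770 CPM in SD+RS and 1073 in SD (−0.48, −0.62 to −0.33), and oligodendrocytes 512 in SD+RS and 653 in SD (−0.35, −0.41 to −0.30). Astrocytes had 453 in SD+RS and 482 in SD (−0.09). Neurons had 550 in SD+RS and 539 in SD, a log2 ratio of 0.03 (0.01 to 0.05), which was −0.02 in cells with only Xist and 0.06 in cells with only Y-linked UMIs.

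Xbp1 (chr11:5520659-5525893, plus strand) encodes the transcription factor made after IRE1 splicing; counts per gene do not separate its spliced and unspliced forms. It was lower in SD+RS in each class with at least 100 UMIs. It had 50.7 CPM in SD+RS precursors and 131 in SD precursors (−1.37, −1.93 to −0.84). In oligodendrocytes it had 35.7 in SD+RS and 66.9 in SD (−0.91), and in astrocytes 58.7 in SD+RS and 107 in SD (−0.86). Within the main astrocyte clusters described below, the log2 ratio of Xbp1 was −0.89 (−1.59 to −0.27, from 21 SD+RS UMIs) and −0.88 (−1.36 to −0.36). Within cells of 1 sex the astrocyte log2 ratio was −0.58 and −1.01. Microglia (−0.46) and endothelial cells (−0.40, which was −0.012 and −0.86 within cells of 1 sex) followed, and neurons had 108 in SD+RS and 133 in SD (−0.30, −0.34 to −0.26).

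Manf encodes a protein that is held in the ER, binds BiP and is secreted when the ER is stressed. Manf (chr9:106838312-106891979, minus strand) differed most in precursors, with 166 CPM in SD+RS and 430 in SD, a log2 ratio of −1.37 (−1.67 to −1.09). Astrocytes had 108 in SD+RS and 182 in SD (−0.75), and oligodendrocytes 77.6 in SD+RS and 124 in SD (−0.67). Within cells of 1 sex Manf was lower in SD+RS in each of these classes, at −0.93 and −1.90 in precursors, −0.59 and −0.71 in astrocytes and −0.52 and −1.19 in oligodendrocytes. Neurons had 208 in SD+RS and 245 in SD (−0.23, −0.26 to −0.21), and in microglia (−0.29) and mural cells (−0.34) the interval included 0.

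Sdf2l1 (chr16:17130138-17132383, minus strand) encodes a partner of the BiP cochaperones, and Creld2 (chr15:88819646-88826683, plus strand) an ER protein with disulfide isomerase activity. Sdf2l1 had 15.7 CPM in SD+RS astrocytes and 29.0 in SD astrocytes (−0.89, −1.31 to −0.48), but within cells of 1 sex the intervals included 0, at −0.55 (−1.17 to 0.06) and −0.41 (−1.16 to 0.27). Oligodendrocytes had 63.5 in SD+RS and 97.5 in SD (−0.62), precursors 170 in SD+RS and 254 in SD (−0.58), and microglia 162 in SD+RS and 175 in SD (−0.11, −0.42 to 0.21). Endothelial cells held 17 SD+RS and 28 SD UMIs of it in all, too few to compare. Creld2 had 37.0 in SD+RS precursors and 85.8 in SD precursors (−1.21, −1.88 to −0.59). It had 24.9 in SD+RS astrocytes and 40.8 in SD astrocytes (−0.71, which was −0.43 and −1.08 within cells of 1 sex), and 20.6 in SD+RS endothelial cells and 33.6 in SD endothelial cells (−0.71), the 1 endothelial call. In neurons Creld2 (−0.36) and Sdf2l1 (−0.35) had the lowest log2 ratios of the 10 genes.

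Dnajb9 and Herpud1 serve disposal. Dnajb9 (chr12:44205559-44210326, minus strand) encodes ERdj4, a BiP cochaperone that also represses IRE1, and Herpud1 (chr8:94386438-94395377, plus strand) encodes a membrane organiser of ER-associated degradation. Dnajb9 had 165 CPM in SD+RS astrocytes and 179 in SD astrocytes (−0.11, −0.25 to 0.02), and 156 in SD+RS precursors and 148 in SD precursors (0.07, −0.28 to 0.42), which was 0.47 and −0.69 within cells of 1 sex with intervals that include 0. Herpud1 was unlike it in astrocytes, with 96.1 in SD+RS and 162 in SD (−0.76, −0.92 to −0.59, and −0.89 and −0.58 within cells of 1 sex), and in oligodendrocytes, with 37.8 in SD+RS and 59.2 in SD (−0.65). In microglia Herpud1 had 154 in SD+RS and 139 in SD (0.15, −0.18 to 0.49), an interval that includes 0. Dnajb9 was highest in endothelial cells in both libraries, with 306 in SD+RS and 358 in SD.

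Atf4 (chr15:80255184-80257541, plus strand) encodes the transcription factor of the PERK branch, and Ddit3 (chr10:127290774-127296288, plus strand) encodes CHOP, a factor linked to cell death under lasting stress. Both were highest in endothelial cells. Atf4 had 494 CPM in SD+RS endothelial cells and 552 in SD endothelial cells, against a next highest 190 in SD+RS and 236 in SD in mural cells. Ddit3 had 119 in SD+RS endothelial cells and 159 in SD endothelial cells (−0.42, −0.70 to −0.14). In astrocytes the intervals of both included 0, with log2 ratios of −0.13 for Atf4 and −0.10 for Ddit3; Atf4 was 0.088 (−0.20 to 0.37) and −0.67 (−1.26 to −0.11) within cells of 1 sex. In neurons Ddit3 had 45.9 in SD+RS and 46.1 in SD (−0.01). Atf4 in neurons had 86.7 in SD+RS and 100 in SD (−0.21, −0.25 to −0.17), and this was −0.34 in cells with only Xist and 0.04 in cells with only Y-linked UMIs.

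**Figure D1:**
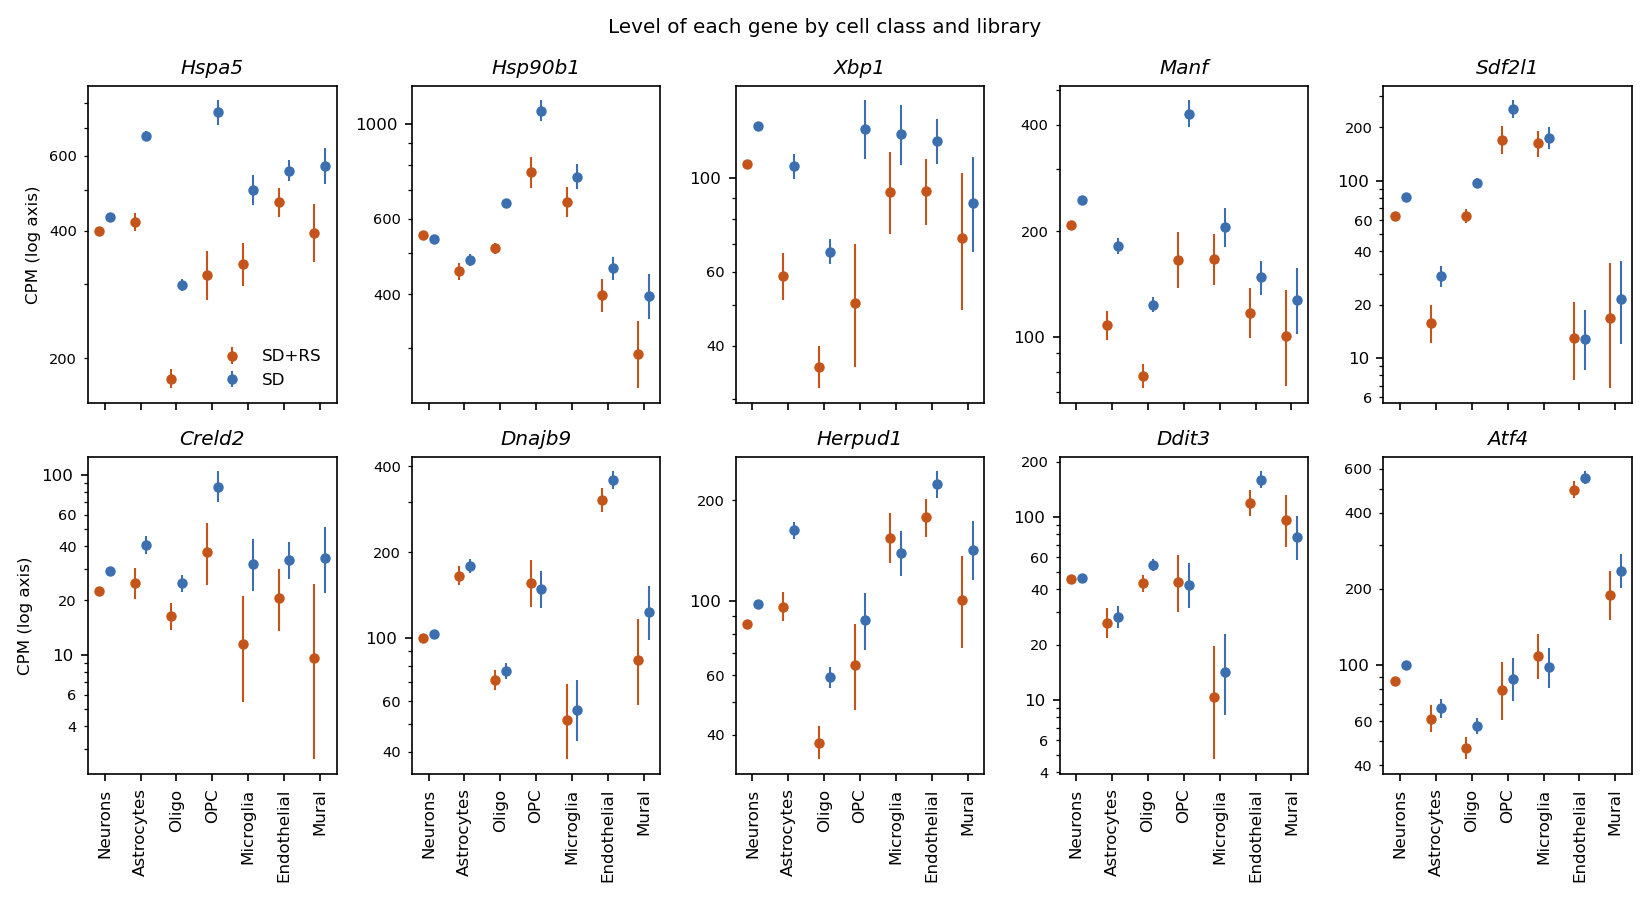
Level of each of the 10 genes (panels) in CPM on a log axis, by cell class (horizontal axis), with SD+RS left of SD in each class and 95% intervals of counting error as bars. Precursors hold the widest gap in Hspa5 and Manf, and Dnajb9, Ddit3 and Atf4 are highest in endothelial cells in both libraries.

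Other measures moved with some of these classes, and their part in the results was not tested. The 13 mitochondrial genes were lower in SD+RS astrocytes (47978 CPM, against 58586 in SD), in precursors (33662 against 40335) and in microglia (40241 against 54071). They were lower by less in endothelial cells (36938.5 against 42784), neurons (41376 against 45487) and oligodendrocytes (68293 against 74593). Mural cells alone went the other way (76373 against 73788). The 6 neuron markers summed to 497 in SD+RS astrocytes and 605 in SD astrocytes, with none of them at 0. In microglia the 6 neuron markers summed to 200.2 in SD+RS and 708 in SD, and the 6 oligodendrocyte markers to 104 in SD+RS and 987 in SD, none at 0. In mural cells the 6 neuron markers summed to 569 in SD+RS and 910 in SD. Endothelial cells of SD+RS carried 8016 CPM of 5 blood cell markers, against 3.69 in SD, with 2 of the 5 at 0. Oligodendrocytes and precursors had like levels of neuron markers in both libraries, at 279 in SD+RS and 291 in SD oligodendrocytes and 2175 in SD+RS and 2031 in SD precursors.

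The main astrocyte clusters each came mostly from 1 library. The cluster led by F3, Etnppl and Gjb6 held 119 SD+RS and 1773 SD cells, and the cluster led by Hes5, Gm3764 and Itih3 held 1059 SD+RS and 109 SD cells. The 10 genes had been left out of the clustering. Their sum was lower in SD+RS within both, with 1562 CPM in SD+RS and 1941 in SD in the F3 cluster (−0.31, −0.44 to −0.19) and 1409 in SD+RS and 1936 in SD in the Hes5 cluster (−0.46, −0.57 to −0.34). Of the genes called in astrocytes, Manf (−0.35), Sdf2l1 (−0.70) and Creld2 (−0.47) had intervals that include 0 in the F3 cluster. There Hspa5 was −0.36, Xbp1 −0.89 and Herpud1 −1.18. In the Hes5 cluster the intervals of all these genes lay below 0, with Hspa5 at −0.61 and Manf at −0.88.

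Of the other genes of the pathway, few passed 1.5-fold between libraries, and the lists are too short for a single gene to stand out from the share of all genes. That share at least 1.5-fold lower, as above, was 1.74% in neurons, 5.28% in astrocytes, 4.08% in oligodendrocytes and 2.7% in precursors. Sensors and transducers had 0 of 9 tested past 1.5-fold in neurons, 0 of 7 in astrocytes and 0 of 7 in oligodendrocytes. In neurons the lowest were Creb3l2, a transducer of secretory load (3.53 CPM in SD+RS, 4.86 in SD, −0.46), Mbtps2, a protease that cleaves ATF6 (−0.19), and Ern1, which encodes IRE1 (−0.14). The highest were Creb3 (0.18), Creb3l1 (0.16) and Atf6 (0.09).

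Among ER chaperones and folding enzymes, 2 of 11 tested were at least 1.5-fold lower in precursors, 1 of 15 in astrocytes, 1 of 15 in oligodendrocytes and 0 of 16 in neurons. The share of all genes was 2.7% in precursors, 5.28% in astrocytes and 4.08% in oligodendrocytes, to which 1 of 15 is near. In precursors Pdia4, a disulfide isomerase, had 79.5 CPM in SD+RS and 163 in SD (−1.04, −1.49 to −0.61), and Dnajc3, a BiP cochaperone, 82.2 in SD+RS and 133 in SD (−0.70). Hyou1, which exchanges nucleotide on BiP, was the astrocyte gene, with 14.7 in SD+RS and 22.3 in SD (−0.59), and Pdia6, another disulfide isomerase, was the oligodendrocyte gene, with 86.3 in SD+RS and 135 in SD (−0.64). In neurons the lowest were Hyou1 (−0.21), Pdia4 (−0.19) and Ero1lb (−0.18), and the highest Cnpy2 (0.06), Fkbp2 (0.05) and Ppib (0.04).

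ER-associated degradation had 0 of 12 past 1.5-fold in neurons and 1 of 11 lower in oligodendrocytes, against 4.08% of all genes there, Edem1, which targets misfolded glycoproteins, with 20.2 CPM in SD+RS and 30.4 in SD (−0.59). In neurons its genes went both ways, with Edem1 (−0.20), Derl2 (−0.18) and Sel1l (−0.15) lowest and Erlec1 (0.22), Selenos (0.20) and Edem2 (0.12) highest. Translocation and export had no gene past 1.5-fold among 14 tested in neurons or 13 in both astrocytes and oligodendrocytes. Its lowest in neurons were Sec24d (−0.29), Srp54a (−0.29) and Sec61a1 (−0.26), and its highest Sec23b (0.07), Ssr2 (0.06) and Spcs1 (0.05).

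Targets of the integrated stress response, the shared output of PERK and the other kinases of eIF2alpha, went both ways in astrocytes. In that class 2 of 12 were lower, against 5.28% of all genes, Ddit4, an inhibitor of mTORC1 (37.7 CPM in SD+RS, 103 in SD, −1.45), and Cebpb (21.3 in SD+RS, 50.8 in SD, −1.26), and 1 was higher, against 2.82% of all genes, Vldlr (22.9 in SD+RS, 12.8 in SD, 0.84). In oligodendrocytes 2 of 11 were lower, against 4.08% of all genes, Ddit4 (−1.02) and Nupr1 (−0.87). In neurons 1 of 16 was lower, against 1.74% of all genes, Atf3, with 0.491 in SD+RS and 0.772 in SD (−0.65, −1.22 to −0.10), followed by Vldlr (−0.26) and Phgdh (−0.20). The highest in neurons were Ppp1r15a, which reverses the translation block (0.20), Chac1 (0.15) and Asns (0.14).

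Magnocellular neurons formed 1 cluster, led by Oxt, Avp and Otp, of 47 SD+RS and 41 SD cells. Of these, 39 SD+RS and 33 SD cells had at least 1% Oxt or Avp UMIs. Oxt was found in 89.4% of the SD+RS and 85.4% of the SD cells, and Avp in 72.3% of the SD+RS and 73.2% of the SD cells. Oxt and Avp made up 36.3% of their UMIs in SD+RS and 33.7% in SD, against 0.0301% in other SD+RS neurons and 0.0392% in other SD neurons. These peptide genes had entered the clustering and are no finding. They take up the total that levels are scaled to, so the median log2 ratio of all genes tested, magnocellular over other neurons, was −0.79 in SD+RS and −0.73 in SD, and ratios are to be read against those values. The cells were also deeper, with a median of 58076 UMIs in SD+RS and 42494 in SD, against 21172 in other SD+RS neurons and 22036 in other SD neurons.

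The magnocellular neurons carried more Manf, Sdf2l1 and Dnajb9 per UMI than other neurons in both libraries, and less Herpud1, as they did of most genes. The sum of the 10 genes was 2246 CPM in magnocellular neurons and 1657 in other neurons of SD+RS, a log2 ratio of 0.44 (0.40 to 0.48), which is 1.23 above the median gene. In SD it was 2172 in magnocellular neurons and 1797 in other neurons, 0.27 (0.23 to 0.32), which is 1.01 above the median gene. In each library 3 of 10 genes were at least 1.5-fold higher in magnocellular neurons, against 4.93% of all genes tested in SD+RS and 5.15% in SD.

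In SD+RS, Sdf2l1 had 147 CPM in magnocellular neurons and 61.6 in other neurons (1.26, 1.10 to 1.41). Manf had 452 in magnocellular neurons and 202 in other neurons (1.16, 1.07 to 1.25), and Dnajb9 205 in magnocellular neurons and 97.7 in other neurons (1.07, 0.94 to 1.20). The same genes led in SD, by less. There, Dnajb9 had 180 in magnocellular neurons and 102 in other neurons (0.82), Manf 376 and 242 in the same order (0.64), and Sdf2l1 125 and 80.4 (0.63). Herpud1 stood at the other end, with 44.9 in magnocellular neurons and 86.5 in other neurons of SD+RS (−0.95, −1.23 to −0.67), and 46.1 in magnocellular neurons and 99.4 in other neurons of SD (−1.11, −1.43 to −0.81). It was the 1 gene of the 10 at least 1.5-fold lower in either library, against 63.2% of all genes in SD+RS and 60.3% in SD, a share that the scaling above makes large. Herpud1 lay 0.16 below the median gene in SD+RS, within its interval, and 0.38 below it in SD, so it was not set apart from the typical gene in SD+RS.

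The chief chaperone was near even on this scale and above the median gene. Hspa5 had 368 CPM in magnocellular neurons and 401 in other neurons of SD+RS (−0.12), and 448 in magnocellular neurons and 429 in other neurons of SD (0.06), which is 0.66 above the median gene in SD+RS and 0.79 above it in SD. Hsp90b1 was higher by 0.39 in SD+RS and 0.32 in SD. Xbp1 was higher by 0.49 (0.34 to 0.64) in SD+RS and differed by 0.02 (−0.16 to 0.20) in SD. Ddit3 (0.01 in SD+RS, −0.09 in SD) and Atf4 (0.18 in SD+RS, 0.16 in SD) had intervals that include 0.

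Between libraries the magnocellular sum was 2246 CPM in SD+RS and 2172 in SD (0.05, −0.01 to 0.11). Manf had 452 in SD+RS and 376 in SD (0.26, 0.13 to 0.40), while in other neurons Manf was lower in SD+RS (−0.26). Hspa5 had 368 in SD+RS and 448 in SD (−0.28, −0.42 to −0.14), and Creld2 18.7 in SD+RS and 37.7 in SD (−1.01, −1.58 to −0.45) from 45 SD+RS and 72 SD UMIs. Cells with more Oxt than Avp had a summed level of 2161 in SD+RS and 2085 in SD. The remaining cells, 15 in each library, had 2653 in SD+RS and 2598 in SD. These had at least as much Avp as Oxt, a rule that would also take in cells with neither. Oxt made up 33.0% of all magnocellular UMIs in SD+RS and 31.0% in SD, and Avp 3.29% and 2.62%. Oxt thus takes up more of the total that Oxt cells are scaled to, and its part in this difference was not tested. The SD gap rested on few cells: the median cell had 2118 among these remaining cells and 2050 among Oxt cells of SD. In SD+RS the median cell had 2641 among the remaining cells and 2104 among Oxt cells. Of the magnocellular cells, 34 SD+RS and 10 SD cells had only Xist UMIs, and 4 SD+RS and 15 SD cells only Y-linked UMIs.

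**Figure D2:**
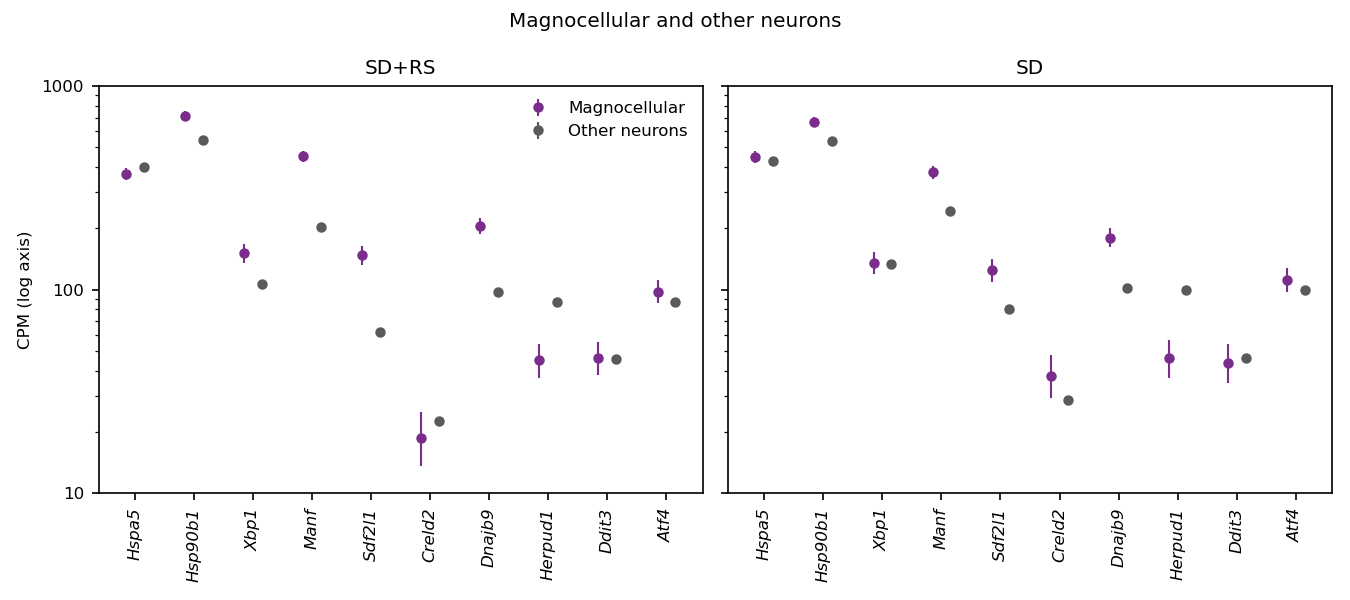
Level of each of the 10 genes (horizontal axis) in CPM on a log axis, with magnocellular neurons left of other neurons, in SD+RS (left panel) and SD (right panel); bars are 95% intervals of counting error. Manf, Sdf2l1 and Dnajb9 lie higher and Herpud1 lower in magnocellular neurons in both libraries, as in Herpud1 at 44.9 against 86.5 in SD+RS.

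Other pathway genes lay on both sides in the magnocellular neurons. Creb3l2 had 25.8 CPM in magnocellular neurons and 2.97 in other neurons of SD+RS (3.12), and 29.8 in magnocellular neurons and 4.31 in other neurons of SD (2.79). Ern1 was higher by 0.97 in SD+RS and 1.94 in SD. P4hb, a disulfide isomerase, was higher by 0.87 in SD+RS and 0.72 in SD, Sec61b, a subunit of the translocation channel, by 0.86 in SD+RS and 0.71 in SD, and Derl3, a degradation channel protein, by 1.08 in SD+RS and 1.07 in SD. Against 4.93% of all genes in SD+RS and 5.15% in SD, at least 1.5-fold higher were 4 of 9 sensors and transducers in each library, 1 of 16 chaperones in each, 3 of 12 degradation genes in SD+RS and 2 of 12 in SD, 3 of 14 translocation genes in each, and 2 of 15 integrated stress response targets in SD+RS and 0 of 15 in SD. Against 63.2% of all genes in SD+RS and 60.3% in SD, at least 1.5-fold lower were 3 of 9 sensors and transducers in SD+RS and 2 of 9 in SD, with Mbtps1, a protease that cleaves ATF6, lowest in both (−1.40 in SD+RS, −0.82 in SD), 2 of 16 chaperones in SD+RS and 1 of 16 in SD, and 5 of 15 integrated stress response targets in each.

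Over the 28 neuron clusters with at least 50 cells in each library, named here by their 3 leading genes, the 10 genes varied by cluster in a way that the libraries shared. The sum ran between 1235 CPM in the Meis2 Nrgn Six3 cluster and 2234 in the C1ql1 Sncg Fam159a cluster in SD+RS, and between 1428 in the Calcr Brs3 Gal cluster and 2208 in the Trh Ghrh Otp cluster in SD. Across the 28 clusters the sum correlated between libraries with a Pearson r of 0.86, and single genes with r between 0.61 for Sdf2l1 and 0.90 for Atf4, a description over clusters that share library and depth. Magnocellular Manf, Sdf2l1 and Dnajb9 were above all 28 clusters in both libraries, and magnocellular Herpud1 was below all 28. Those magnocellular levels are on a total of which Oxt and Avp made up 36.3% in SD+RS and 33.7% in SD. That share lowers them, and the ranks without it were not tested. A cluster led by Gnrh1, of 10 SD+RS and 9 SD cells and so outside the 28, is described below. On that same scale, its Sdf2l1 was above the magnocellular level in both libraries, and its Manf and Dnajb9 were above it in SD only.

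The genes did not share one order of clusters. Hspa5 was highest in the Trh Ghrh Otp cluster, with 615 CPM in SD+RS and 574 in SD, followed by the Tac2 Gal Cbln2 cluster, with 576 in SD+RS and 573 in SD. Hsp90b1 was highest in the Tac2 Gal Cbln2 cluster, with 770 in SD+RS and 743 in SD. That cluster was low in Herpud1, with the lowest level of the 28 in SD+RS (60.8), and the lowest in Creld2 in SD (17.6). The Tac2 Gal Cbln2 cluster was also the deepest of the 28, with a median of 33232.5 UMIs in SD+RS and 34393 in SD. Over the 28 clusters Herpud1 correlated with median depth with r of −0.69 in SD+RS and −0.35 in SD. Atf4 was high in other clusters, with 150 in the Pou3f1 Pvalb Bcl11b cluster of SD+RS and 185 in the Pou3f1 Lhx8 Adarb2 cluster of SD. Ddit3 was highest in the Satb1 Sema3c Lhx6 cluster, with 71.7 in SD+RS and 81.4 in SD.

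**Figure D3:**
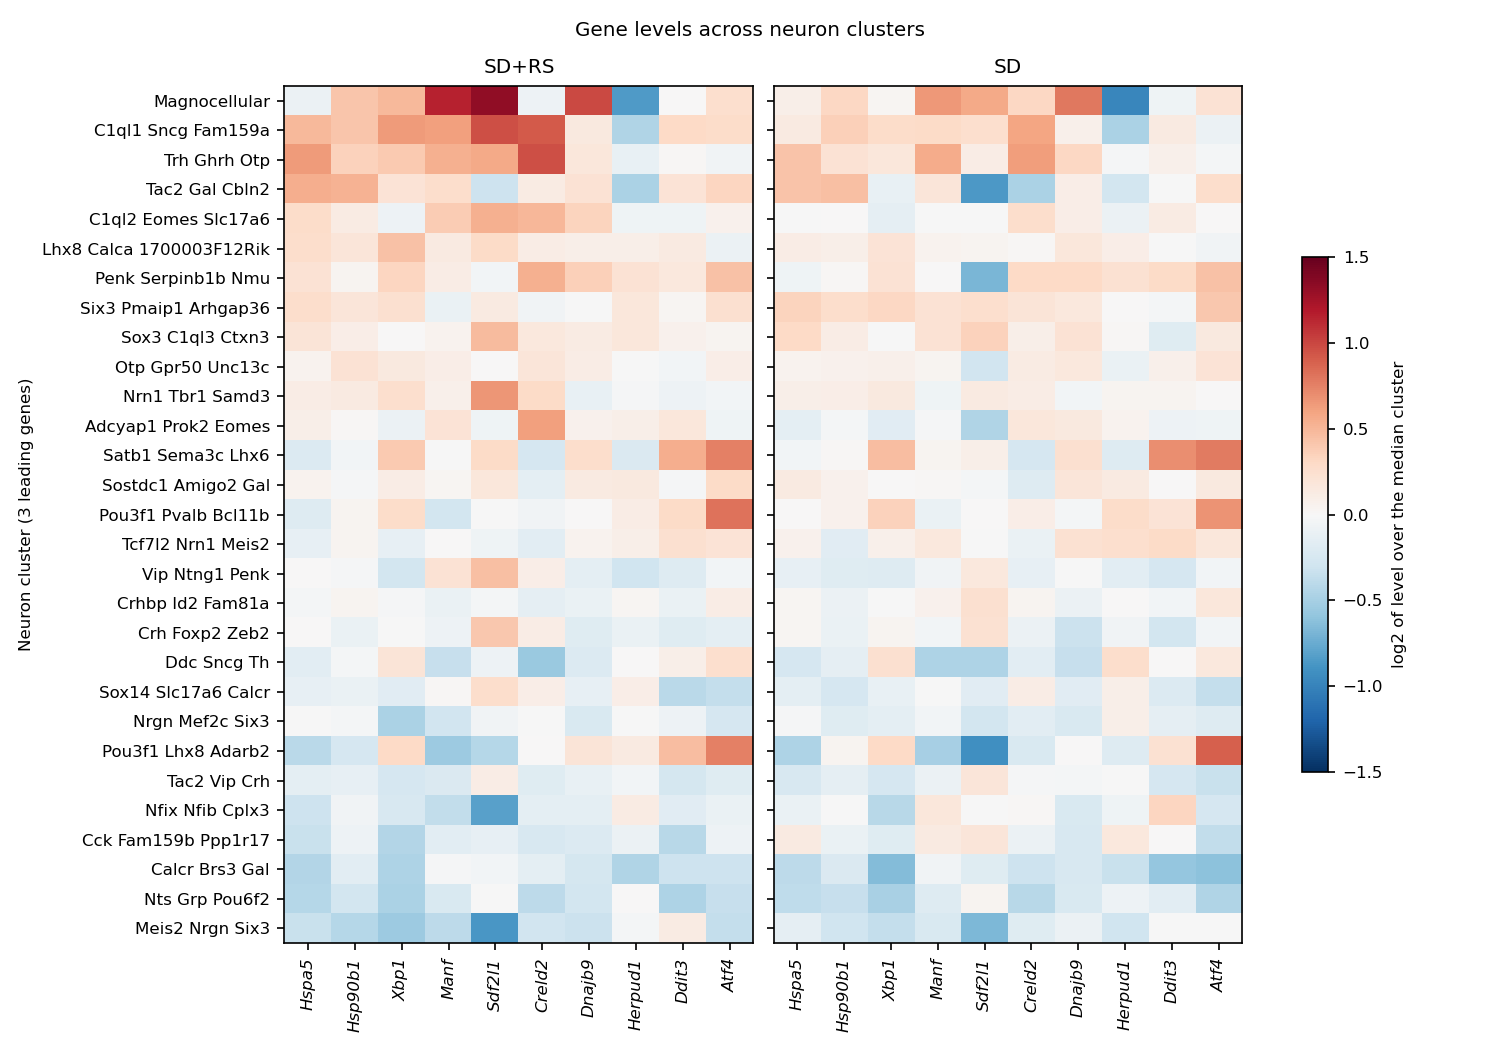
Level of each of the 10 genes (columns) in 29 neuron clusters (rows, named by 3 leading genes), as log2 of the level plus 10 CPM over that of the median of the 28 clusters without the magnocellular one, in SD+RS (left) and SD (right). The magnocellular row stands highest for Manf, Sdf2l1 and Dnajb9 and lowest for Herpud1 in both panels, on a total that Oxt and Avp take up in part.

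The difference between libraries was spread over the neuron clusters. The interval of the sum lay below 0 in 18 of 28 clusters, above 0 in 2 and included 0 in 8, with a median log2 ratio of −0.14. Xbp1 was lower in SD+RS in 27 of 28 clusters and Creld2 in 26, while Hsp90b1 was lower in 9 and Ddit3 in 14. All 28 clusters come from the same libraries and share their mix of sexes, so these counts are a description and not replicates.

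As a mean, the 10 genes were only weakly related to neuropeptide level, and single genes went opposite ways. Over the 28 clusters, the mean standardised level of the 10 genes correlated with the summed level of 30 neuropeptide precursors with r of −0.15 in SD+RS and −0.26 in SD, and with 12 secretory granule proteins with r of 0.14 in SD+RS and 0.20 in SD. With granule proteins, Manf had r of 0.61 in both libraries, Creld2 0.56 in SD+RS and 0.51 in SD, Hspa5 0.49 in SD+RS and 0.47 in SD, and Atf4 −0.56 in SD+RS and −0.46 in SD. With clusters of at least 40 cells, which take in the magnocellular one, Manf had r of 0.30 in SD+RS and 0.39 in SD. The values of Creld2, Hspa5 and Atf4 changed less. With neuropeptide precursors, Atf4 had r of −0.42 in SD+RS and −0.53 in SD, Ddit3 −0.53 in SD+RS and −0.44 in SD, and Xbp1 −0.32 in SD+RS and −0.59 in SD. Over clusters of at least 40 cells all of these were nearer 0. Atf4 then had −0.14 and −0.29 in the same order, Ddit3 −0.33 and −0.27, and Xbp1 −0.03 and −0.36. Manf went from 0.34 to 0.58 in SD+RS and from 0.32 to 0.47 in SD. These are descriptions over clusters that share library, depth and total. Median depth correlated with the mean with r of 0.12 in SD+RS and −0.34 in SD. The Tac2 Gal Cbln2 cluster had the most neuropeptide precursor UMIs of the 28, with 15847 CPM in SD+RS and 16798 in SD, and magnocellular neurons had 363524 in SD+RS and 337059 in SD.

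**Figure D4:**
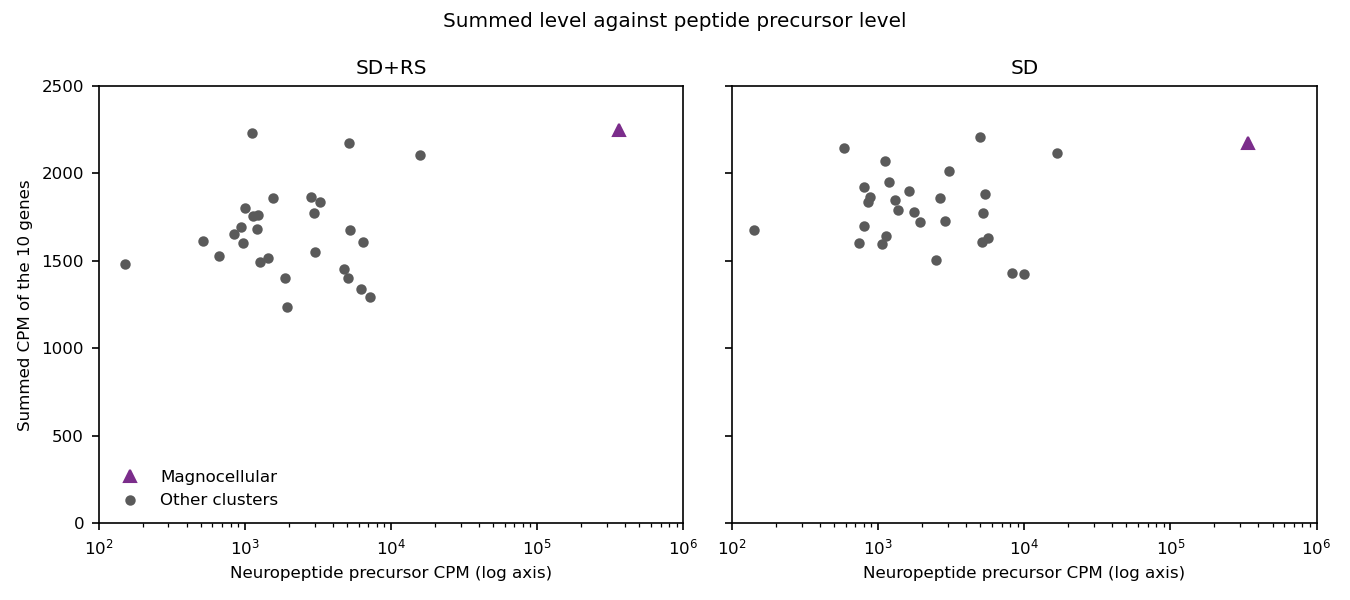
Summed level in CPM of the 10 genes (vertical axis, from 0) against neuropeptide precursor level in CPM (horizontal log axis) in SD+RS (left) and SD (right), with 1 point for each of 28 neuron clusters and a triangle for the magnocellular cluster. The 28 clusters are spread widely at every neuropeptide level, and the magnocellular sums, 2246 in SD+RS and 2172 in SD, lie near those of the highest clusters.

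Outside the lists, the 10 genes whose levels over clusters and libraries (56 points) were most like the mean of the unfolded protein response genes, among 6841 genes, were Cacybp (r = 0.76), Med31 (0.72), Ubxn4 (0.71), Stip1 (0.67), Tvp23b (0.66), Uba6 (0.66), Gnpnat1 (0.66), Rcn2 (0.65), Dnaja1 (0.65) and Chchd1 (0.65).

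In the authors' deposited table of cluster markers over both libraries, 6 of the 10 genes were listed, in 14 rows. The authors' cluster e1, led in that table by Gnrh1, Cxcl14 and Six6, listed 6 of them, with Hspa5 at 0.73, Sdf2l1 at 0.60, Manf at 0.59, Dnajb9 at 0.57, Hsp90b1 at 0.52 and Atf4 at 0.27, as log average fold of that cluster over other cells in the authors' deposited table, whose log base is not stated. Gnrh1 encodes gonadotropin-releasing hormone. The rebuilt cluster led by Gnrh1 held 10 SD+RS and 9 SD cells, and was looked up after that table had been seen. Its sum was 3239 CPM in SD+RS (3015 to 3476) and 3636 in SD (3356 to 3933), above the magnocellular sum and all 28 clusters. Hspa5 in it had 898 in SD+RS and 1150 in SD, and Dnajb9 200.4 in SD+RS and 338 in SD. Sdf2l1 had 180 in SD+RS (130 to 242) and 216 in SD (152 to 298), against 147 and 125 in magnocellular neurons in the same order. Manf had 388 in SD+RS (313 to 476) and 496 in SD (396 to 613), against 452 and 376 in magnocellular neurons. The magnocellular values, with the sum, are lowered by the Oxt and Avp UMIs in their total. How the Gnrh1 cluster stands to magnocellular neurons without those UMIs was not tested.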

How the data were processed

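The members and gene lists were chosen with earlier results of these data known. The authors deposited UMI counts per gene and barcode for 2 libraries; per the file headers, the program was Cell Ranger 3.0.2, the build was mm10, and Seurat 4.0.4 is named, per the submitters' processing notes. The authors' deposited marker table gives a log fold of each of their clusters over other cells, per the file headers; 3 other marker tables were not used.

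Barcodes were kept at 500 genes or more and a mitochondrial share under 20%, which left 7709 of 8106 SD+RS and 9875 of 10262 SD barcodes. Doublets were marked in each library by scanpy 1.11.5 (expected rate 6%, threshold at the minimum between the modes of simulated scores) and removed, 297 SD+RS cells (3.85%) and 580 SD cells (5.87%). Clusters came from 2000 variable genes, 40 principal components, 20 neighbours and the Leiden method (leidenalg 0.10.2) at resolution 1 for all cells and 1.5 for neurons. The 10 genes, the other pathway lists, and mitochondrial, ribosomal and sex-linked genes were left out of clustering. Classes needed at least 3 markers, each in at least 20% of cells; this scoring was set after the data had been seen. UMIs were summed per class and library and scaled to 1000000 (CPM). Levels have exact Poisson and ratios exact conditional binomial intervals (95%), which cover counting error only, and the ratio script was tested on simulated data. Correlations used log2 of the level plus 10. Named were all 10 genes, the 3 highest and 3 lowest of each other list in neurons, at most 3 at either end elsewhere, and the 10 most alike genes of at least 20 CPM. Gene spans are from the mm10 annotation in GENCODE. Groups came from the treatment label. Alternatives covered doublets, cell filters, scaling, sex, cluster resolution, the magnocellular gate and count thresholds.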

Additional observations from a re-analysis of the deposited data

Results flagged for a closer look

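Values that went in opposite directions between cell groups under the same contrast, SD+RS over SD, were picked out where the 95% counting intervals of both lay on opposite sides of 0. None of these differences between groups was tested, since each group has 1 library. Hsp90b1 had a log2 ratio of −0.48 in oligodendrocyte precursors and 0.029 in neurons. Manf had 0.26 in magnocellular neurons and −0.26 in other neurons. The sum of the 10 genes had 0.11 in the C1ql1 Sncg Fam159a cluster and 0.069 in the C1ql2 Eomes Slc17a6 cluster, against −0.34 in the Cck Fam159b Ppp1r17 cluster, the lowest of 28.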

How the results depend on the processing

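No paired analysis was possible because each group has 1 library. Over all alternatives tried, no class or magnocellular sum changed sign. Of the comparisons of main results, 54 stayed close to the main value and 28 moved. In neurons the log2 ratio of the sum was −0.10 less the median gene, −0.14 as a mean over cells, −0.14 in cells with only Xist, −0.046 in cells with only Y-linked UMIs and −0.14 with the low-depth cluster (an alternative added after seeing the data). With only Xist and only Y-linked UMIs, in that order, it was −0.35 and −0.34 in astrocytes, −0.41 and −0.56 in oligodendrocytes, −0.046 and −0.49 in microglia, −0.18 and −0.49 in endothelial cells, and with only Xist −0.61 in precursors. The genes at least 1.5-fold lower with only Xist were 2 in astrocytes, 2 in oligodendrocytes and 2 in precursors, and with only Y-linked UMIs 2 in precursors (added after seeing the data). In precursors Xbp1 and Creld2 then had under 100 UMIs and were not counted. In the F3 Etnppl Gjb6 astrocytes, added after seeing the data, the log2 ratio of the sum was −0.31. Magnocellular over other neurons became 1.09 in SD+RS and 0.86 in SD with neuropeptide UMIs left out of the total, and 1.23 in SD+RS and 1.01 in SD less the median gene (added after seeing the data); in SD it was 0.22 for cells with at least 1% Oxt or Avp UMIs and 0.21 with doublets kept as well. The gene-class pairs past 1.5-fold, 2921, became 752 at 400 UMIs, 11603 at 20 UMIs and 641 at 2-fold; a lower minimum lets in genes with wider counting error.

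Of single genes whose pooled interval excluded 0, 6 results changed sign: in neurons with only Y-linked UMIs Hspa5 (0.013), Dnajb9 (0.018) and Atf4 (0.037), Hsp90b1 in neurons as a mean over cells (−0.010) and with only Xist (−0.023), and Hsp90b1 in astrocytes with only Y-linked UMIs (0.061). Genes whose pooled interval included 0 changed sign too, as Atf4 in astrocytes with only Xist (0.088). The cause was not tested. The magnocellular cluster had under 50 cells in each library and so lay outside the 28 clusters and the main correlations. Clusters of at least 40 cells, which take it in, were added after seeing the data. With them the correlation of the mean with neuropeptides was 0.13 in SD+RS and −0.02 in SD. That of Manf with granule proteins was 0.30 in SD+RS and 0.39 in SD. Depth limits the smaller classes: only 6 of the 10 genes had 100 UMIs in mural cells and 8 in microglia.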
